A study of Mus musculus with 27 samples.

Results

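The genes described here encode 9 EF-hand calcium-binding proteins that are used to tell classes of retinal neurons apart: Calb1, Calb2, Pvalb, Scgn, Cabp1, Cabp4, Cabp5, Necab1 and Necab2. They were chosen by gene symbol from 19301 measured genes, and each had 1 probe set on the array. Expression had been profiled on 27 mouse gene arrays, 3 for each of 9 groups, with RNA of 200 cells on each array of a titration or mixture group. The cells were sorted by fluorescence from dissociated adult retina, on a mixed background of C57BL/6J and FVB/N-Swiss Webster hybrid. Starburst amacrine cells came from 129S6-Chat_tm1(cre)Lowl/J mice crossed with Rosa26-LSL-RFP mice, in which Cre made from the Chat gene switches on RFP. Cone photoreceptors came from Tg(Chrnb4-EGFP)1Gsat mice, and Arc amacrine cells from Tg(Arc-EGFP)194Gsat/Mmcd mice. The 8 groups of starburst and cone cells held 200 and 0, 150 and 50, 125 and 75, 100 and 100, 50 and 150, 43 and 157, 17 and 183, and 0 and 200 cells. Each of 3 rounds of sorting used other mice, with 6 retinas carrying RFP and 2 carrying the cone reporter pooled for the titration. Mice from the reporter repository carried a recessive mutation that causes photoreceptor degeneration before they were backcrossed, according to the labels. Each cell type had its own mouse line, so that cell type and line cannot be told apart.

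An EF hand is a loop between a pair of helices that holds a calcium ion. Some EF-hand proteins, among them calbindin (Calb1), calretinin (Calb2) and parvalbumin (Pvalb), are abundant buffers that shape calcium signals in neurons, and secretagogin (Scgn) is a relative of the first pair. Others are sensors that change shape on binding calcium and act on channels and receptors, as the CaBP proteins (Cabp1, Cabp4, Cabp5) do at voltage-gated calcium channels. The NECAB proteins (Necab1, Necab2) carry an EF hand near their amino end and were found as binding partners of synaptic and receptor proteins. In the retina, antibodies to these proteins mark starburst and other amacrine cells, horizontal cells, ganglion cells, bipolar cell types and photoreceptor terminals.

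The values are log2 expression from RMA, whose overall median was 2.83, and the number of arrays limits their precision. A gene was called different where limma's adjusted p was under 0.05 and the log2 difference at least 1 in size. All 9 genes passed the filter on dim genes, which asked for more than 2.83 on at least 3 arrays, but Necab1 exceeded that level on 5 of 27 arrays and Scgn on 11, while Cabp1, Cabp4 and Necab2 exceeded it on all 27. Cone markers summed to between 5186 and 12830 linear units on the pure cone arrays and between 103 and 297 on the pure starburst arrays, and starburst markers to between 67 and 111 and between 2559 and 2783. The third array stood apart in 5 of the 7 groups that held cone cells, those with 75, 150, 157, 183 and 200 of them, by a low sum of the 10 cone markers. With 0 starburst cells the cone marker sums of replicates 1, 2 and 3 were 12830, 12500 and 5186 and the rod marker sums 3392, 3269 and 5107, and with 17 starburst cells the cone sums were 12224, 11298 and 3802. The results are therefore given also without the third array of every group.

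**Figure D1:**
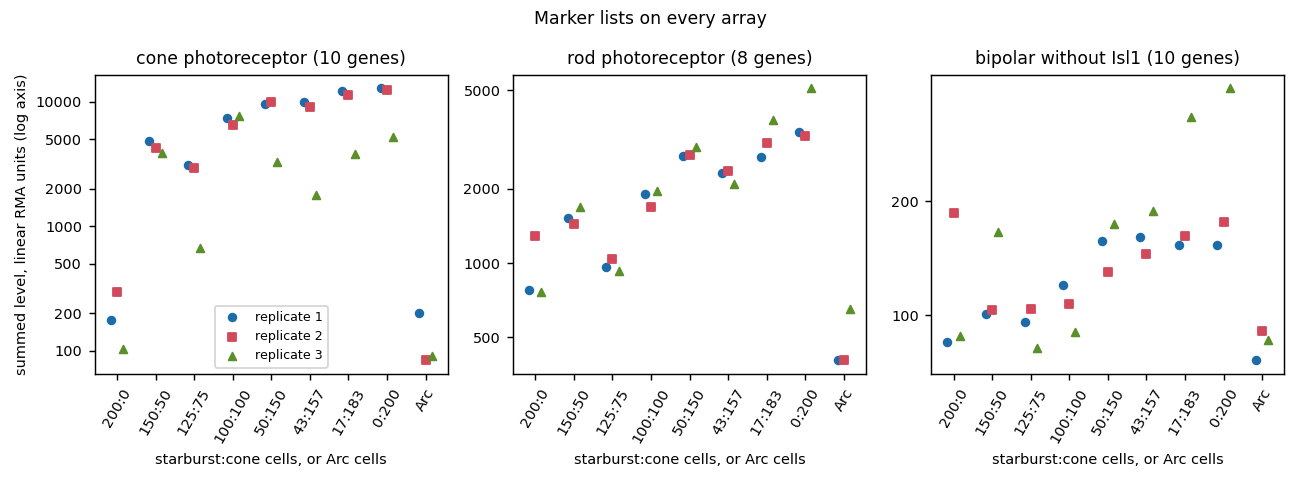
Summed linear level of the fixed cone, rod and bipolar markers on each array (log axes), by the numbers of starburst and cone cells sorted or for Arc cells; colours and symbols are replicates. The third pure cone array has the lowest cone sum (5186) and the highest rod sum (5107) of its group, and the bipolar sum without Isl1 is 399 there against 153 and 177.

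Between pure cone and pure starburst cells, 7 of the 9 genes were called, 5 lower in cones (Calb1, Calb2, Pvalb, Cabp1, Necab2) and 2 higher (Scgn, Cabp5). Over all 12441 tested genes 8.42% were called, 5.79% lower and 2.64% higher. Between Arc amacrine and pure starburst cells 3 of 9 were called, all lower in the Arc cells (Calb1, Calb2, Necab2), against 3.55% of all genes called and 1.39% called lower. Between Arc and pure cone cells 3 of 9 were called, Cabp1 higher and Scgn and Cabp5 lower in the Arc cells, against 10.3% of all genes, 7.83% higher and 2.51% lower. Without the third array of every group the counts were 7, 3 and 4 of 9, against 7.81%, 3.1% and 9.48% of all genes. For cone minus starburst Cabp4 then took the place of Scgn, and for Arc minus cone Cabp4 was added. The median log2 difference over the 9 genes was -1.92, -0.65 and -0.08 in these comparisons, beside -0.04, 0.03 and 0.07 over all tested genes. The comparisons share control arrays, so that their calls are not independent. In cells sorted in bulk, fewer cells of a type and less RNA per cell cannot be told apart.

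**Figure D2:**
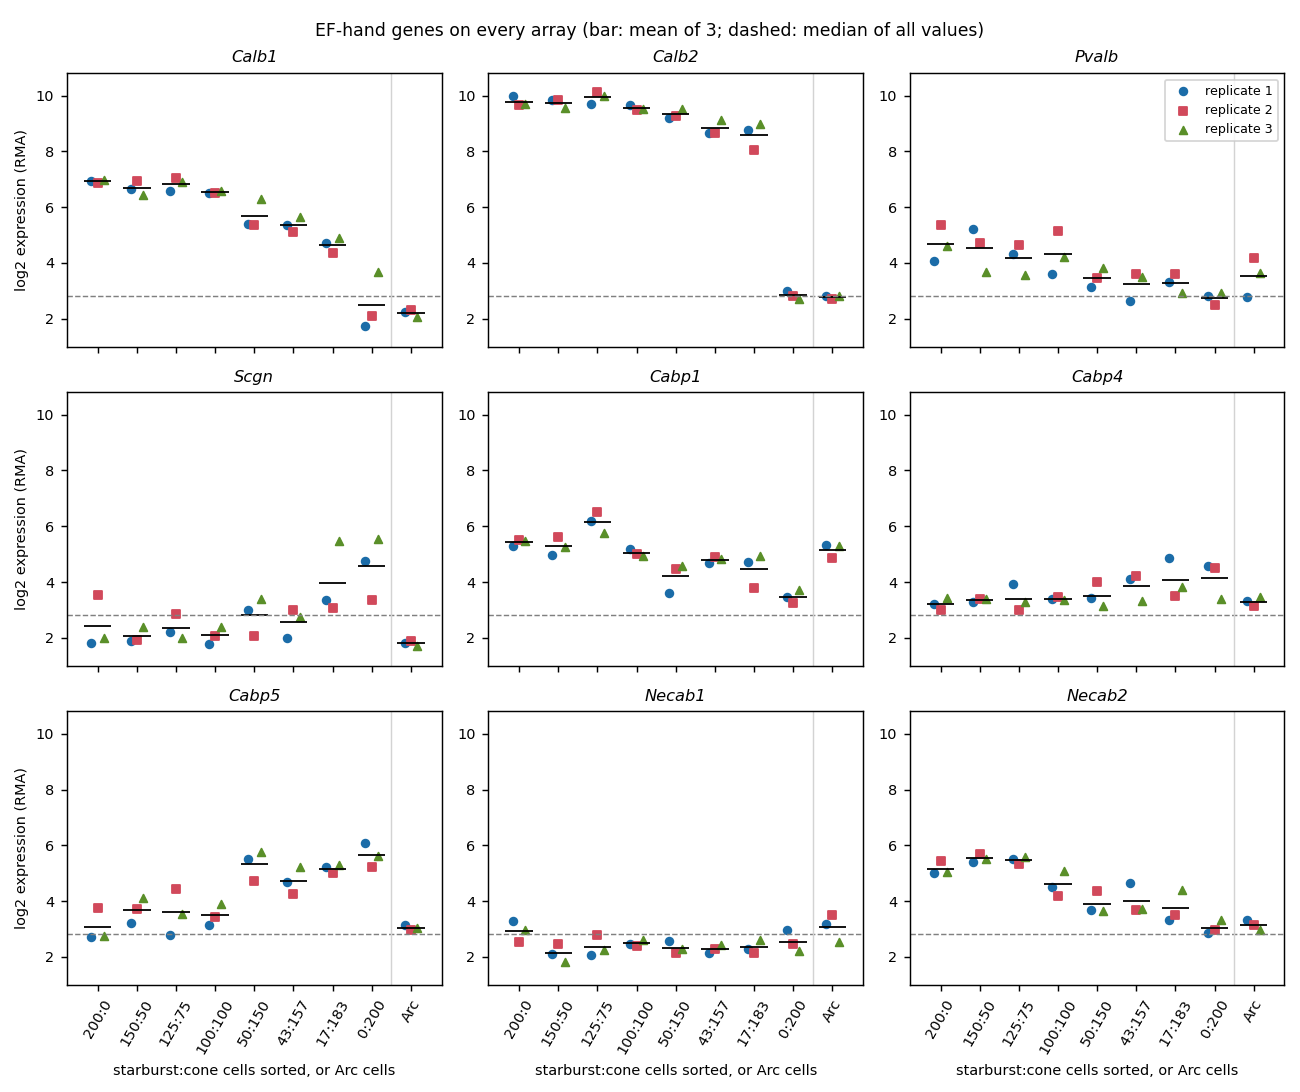
Log2 expression (RMA) of each gene on all 27 arrays, by the numbers of starburst and cone cells sorted or for Arc cells; symbols are replicates, bars the mean of 3 arrays and the dashed line the median of all values (2.83). Calb1 and Calb2 stay far above the pure cone level down to 17 starburst cells, while Necab1 lies near the dashed line throughout.

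Calretinin, the buffer that Calb2 encodes, gave the widest range of the 9 genes. Calb2 read 9.99, 9.67 and 9.68 on the pure starburst arrays, 3.01, 2.83 and 2.72 on the pure cone arrays and 2.80, 2.70 and 2.82 on the Arc arrays. The cone and Arc arrays overlapped at the median of all values, and the starburst arrays lay far above both. The difference was -6.93 ± 0.19 (SE, n = 3 arrays per group, adjusted p = 1.4e-16) for cone minus starburst and -7.01 ± 0.19 (1.1e-16) for Arc minus starburst. For Arc minus cone it was -0.08 ± 0.19 (0.846), with a 95% interval from -0.48 to 0.32.

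Calb2 means stood in the order 125 starburst cells (9.94 ± 0.22, SD, n = 3), 200 (9.78 ± 0.18), 150 (9.74 ± 0.17), 100 (9.56 ± 0.10), 50 (9.33 ± 0.16), 43 (8.82 ± 0.28), 17 (8.60 ± 0.48), pure cone (2.85 ± 0.15) and Arc cells (2.77 ± 0.07). Of the 8 neighbouring pairs in this order, 6 had overlapping arrays, and the steps that separated were those from 50 to 43 and from 17 to 0 starburst cells. The last step measured 5.74.

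Calbindin, the buffer encoded by Calb1, was also a starburst gene here. Calb1 read 6.92, 6.88 and 6.98 on the pure starburst arrays, 2.25, 2.32 and 2.07 on the Arc arrays, and 1.75, 2.09 and 3.66 on the pure cone arrays. The third cone array was the high one, though it stayed under every starburst array. On that array the starburst markers summed to 111 against 71 and 67. Isl1, a starburst transcription factor that is on the bipolar list too, read 5.82 against 3.54 and 3.66. The starburst markers Slc18a3 (2.81 against 3.56 and 3.10), Slc10a4 (2.72 against 2.97 and 3.06) and Slc5a7 were lowest there. Sox2 (2.68 against 2.44 and 2.31), Megf10 and Megf11 were highest there, and Chat lay between its other values. The pan-amacrine markers summed to 278 against 181 and 176, and the bipolar markers without Isl1 to 399 against 153 and 177. The part of RNA from other cells in the Calb1 value was not tested. The difference was -4.43 ± 0.33 (adjusted p = 3.3e-09) for cone minus starburst, -4.98 ± 0.20 (9.2e-09) without the third arrays, and -4.71 ± 0.33 (9.3e-10) for Arc minus starburst. Arc minus cone was -0.28 ± 0.33 (0.630), and 0.30 (0.491) without the third cone array.

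Across the mixtures Calb1 averaged 6.84 ± 0.23 with 125 starburst cells, 6.68 ± 0.24 with 150, 6.53 ± 0.05 with 100, 5.69 ± 0.53 with 50, 5.37 ± 0.28 with 43 and 4.65 ± 0.27 with 17. In the order of means, the arrays of 5 of 8 neighbouring pairs overlapped. Separate were 100 and 50, 43 and 17, and 17 and 0 starburst cells.

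Parvalbumin, a buffer known from ganglion cells and some amacrine cells, varied more between replicates. Pvalb read 4.08, 5.35 and 4.59 on the pure starburst arrays, 2.83, 2.50 and 2.93 on the pure cone arrays and 2.79, 4.19 and 3.65 on the Arc arrays. Starburst and cone arrays did not overlap, and the Arc arrays spanned the gap between them. The difference was -1.92 ± 0.44 (adjusted p = 0.0041) for cone minus starburst, and -2.05 ± 0.56 (0.0351) without the third arrays. Arc minus starburst was -1.13 ± 0.44 (0.170, 95% interval -2.04 to -0.22) and Arc minus cone 0.79 ± 0.44 (0.240, -0.12 to 1.70), neither called. Ganglion cell markers, 8 measured of 9 listed, summed to between 57 and 77 units on the pure starburst arrays. The sums were between 69 and 103 on the pure cone arrays and between 125 and 199 on the Arc arrays. Of the 4 markers tested, Thy1 alone was called. It was higher in Arc cells than in starburst cells (2.52 ± 0.37) and cones (2.33 ± 0.37). The part of ganglion cells in the Pvalb values was not tested. In the order of group means, the arrays of all 8 neighbouring pairs of Pvalb overlapped.

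Secretagogin marks types of cone bipolar cells in the mouse retina. Scgn read 4.77, 3.37 and 5.53 on the pure cone arrays, 1.81, 3.53 and 1.99 on the pure starburst arrays and 1.82, 1.88 and 1.70 on the Arc arrays. The second starburst array lay above the second cone array, so these groups overlapped, while every cone array lay above every Arc array. Arc minus cone was -2.76 ± 0.56 (adjusted p = 0.0011), and -2.22 ± 0.56 (0.0194) without the third arrays. Cone minus starburst was 2.11 ± 0.56 (0.0122), but the adjusted p was 0.0726 without pure starburst replicate 1, 0.0579 without pure starburst replicate 3, 0.0809 without pure cone replicate 3, 0.150 without the third arrays and 0.101 with only those groups in the fit. Among arrays with 17 starburst and 183 cone cells, Scgn read 3.37, 3.08 and 5.46, the third again the highest.

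The third arrays of the pure cone group and of the mixture with 183 cone cells had the highest Scgn values. They also had the highest bipolar sums without Isl1. Pure cone replicate 1 had a Scgn of 4.77 and the lowest bipolar sum of its group. The bipolar sums without Isl1, which starburst cells express, were 153, 177 and 399 on the pure cone arrays, 153, 162 and 335 with 183 cone cells, 85, 186 and 88 on the pure starburst arrays and between 76 and 91 on the Arc arrays. Of the 10 measured genes, 5 exceeded the overall median on all pure cone arrays, and the ON bipolar receptor gene Grm6 read 2.71, 2.79 and 2.78 there, with its channel Trpm1 at 2.41, 2.31 and 2.91. The G protein subunit Gng13 read 4.76, 5.94 and 7.70, and Pcp2 4.55, 4.58 and 6.56. The sum also holds Otx2, which is a photoreceptor factor as well. Otx2 read 5.65, 5.49 and 5.36 on the pure cone arrays and 3.88, 4.37 and 3.10 on the pure starburst arrays. The sum thus includes a gene that is not specific to bipolar cells. Otx2 was lowest on the third pure cone array, where Gng13 and Pcp2 were highest. The part of bipolar RNA in the Scgn values was not tested.

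Among the CaBP sensors, Cabp5 alone was called higher in pure cone than in pure starburst cells with all arrays in the fit. Its protein is known from rod bipolar and some cone bipolar cells, where it binds calcium channels. The 250 bases before its annotated start are shown because Cabp5 differed most of the CaBP genes between pure cone and pure starburst cells and because, once the sequence had been read, they were seen to hold the letters TAATCC, the core bound by the photoreceptor homeodomain factors Crx and Otx2. RefSeq promoters (GRCm38.p6) were at hand for 5 of the 9 genes, Pvalb, Scgn, Cabp1, Cabp5 and Necab2. The stretch of Scgn, the other gene higher in cones, is set beside it. Capitals mark TAATCC or its reverse complement GGATTA, and both lines run 5′ to 3′ on the gene's strand.
Cabp5, chr7:13397905-13398154, plus strand: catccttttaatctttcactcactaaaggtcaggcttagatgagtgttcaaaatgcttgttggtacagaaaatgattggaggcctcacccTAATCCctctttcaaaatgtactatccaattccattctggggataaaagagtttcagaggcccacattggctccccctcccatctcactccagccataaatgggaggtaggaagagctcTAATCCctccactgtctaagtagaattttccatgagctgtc
Scgn, chr13:23991215-23991464, minus strand: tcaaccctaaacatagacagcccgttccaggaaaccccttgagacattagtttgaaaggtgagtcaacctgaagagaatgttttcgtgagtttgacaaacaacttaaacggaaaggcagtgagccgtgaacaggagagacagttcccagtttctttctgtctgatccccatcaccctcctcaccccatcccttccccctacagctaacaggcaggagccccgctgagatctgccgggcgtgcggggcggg
The Cabp5 stretch held TAATCC at 2 places, -160 to -155 and -41 to -36 relative to the start, and the stretches of Scgn, Pvalb, Cabp1 and Necab2 held neither form. Of 32851 promoters of this length, 6.25% held at least 1 match and 0.295% at least 2. A match describes these letters and is not a measured site.

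Cabp5 read 6.10, 5.22 and 5.62 on the pure cone arrays, 2.72, 3.76 and 2.75 on the pure starburst arrays and 3.13, 2.95 and 3.05 on the Arc arrays. All cone arrays lay above all others of these groups. Cone minus starburst was 2.56 ± 0.38 (adjusted p = 4.9e-05), and 2.41 ± 0.50 (0.0076) without the third arrays. Arc minus cone was -2.60 ± 0.38 (3.2e-05), and Arc minus starburst -0.04 ± 0.38 (0.986, 95% interval -0.82 to 0.75). Among pure cone arrays, Cabp5 was highest on the first, and the bipolar and rod sums were highest on the third. In 5 of the 6 mixtures the third array had the highest Cabp5, and among pure starburst arrays it was the second, whose bipolar sum was 186 against 85 and 88. The part of bipolar RNA in the Cabp5 values was not tested. Group means fell into an upper set, from 5.64 ± 0.44 in pure cones to 4.72 ± 0.50 with 157 cone cells, and a lower set, from 3.68 ± 0.47 with 50 cone cells to 3.04 ± 0.09 in Arc cells. The arrays overlapped in 7 of 8 neighbouring pairs, and the pair across that gap did not.

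Cabp4, a sensor of photoreceptor terminals that tunes the calcium channel made from Cacna1f, was dim. It read 4.57, 4.50 and 3.38 on the pure cone arrays, 3.21, 3.00 and 3.42 on the pure starburst arrays and 3.31, 3.15 and 3.46 on the Arc arrays. The first and second cone arrays lay above all of these, and the third fell among the starburst and Arc arrays. Cone minus starburst was 0.94 ± 0.34 (adjusted p = 0.0699) and Arc minus cone -0.85 ± 0.34 (0.0896), neither called. Without the third pure cone array they were 1.32 (0.0108) and -1.23 (0.015), and without the third arrays 1.43 (0.0325) and -1.31 (0.0417), all called. Cabp4 was thus low on the array whose cone marker sum was 5186 against 12830 and 12500, the reverse of Scgn.

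Cabp1, which encodes caldendrin and shorter forms that act on calcium channels and inositol trisphosphate receptors, was shared by both amacrine populations. It read 5.29, 5.50 and 5.48 on the pure starburst arrays, 5.31, 4.87 and 5.28 on the Arc arrays and 3.47, 3.24 and 3.73 on the pure cone arrays. The amacrine arrays overlapped each other and lay above every cone array. Cone minus starburst was -1.94 ± 0.27 (adjusted p = 2.6e-05), Arc minus cone 1.67 ± 0.27 (1.1e-04), and Arc minus starburst -0.27 ± 0.27 (0.744, 95% interval -0.83 to 0.29). Without the third arrays the first pair stood at -2.04 (0.0019) and 1.74 (0.0046). The highest Cabp1 values of the series were those of the mixture with 125 starburst and 75 cone cells, 6.20, 6.50 and 5.74, all above the pure starburst arrays. That difference was 0.73 ± 0.27 and was not called (0.459).

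Necab2, a partner of adenosine and metabotropic glutamate receptors, separated starburst cells from both other types. It read 5.02, 5.44 and 5.03 on the pure starburst arrays, 2.86, 2.95 and 3.34 on the pure cone arrays and 3.33, 3.14 and 2.97 on the Arc arrays. Cone and Arc arrays overlapped, and all lay under the starburst arrays. The difference was -2.11 ± 0.29 (adjusted p = 1.9e-05) for cone minus starburst and -2.02 ± 0.29 (5.1e-05) for Arc minus starburst, and Arc minus cone was 0.09 ± 0.29 (0.880, 95% interval -0.50 to 0.69). Without the third arrays the first pair stood at -2.32 (2.9e-04) and -1.99 (0.0019). Means ran from 5.53 ± 0.15 with 150 starburst cells to 3.05 ± 0.26 in pure cones, and the arrays of all 8 neighbouring pairs overlapped.

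Necab1, its relative, was called in no comparison of cell types. It read 3.29, 2.52 and 2.98 on the pure starburst arrays, 2.97, 2.47 and 2.21 on the pure cone arrays and 3.17, 3.52 and 2.54 on the Arc arrays, and the groups overlapped. The differences were -0.39 ± 0.25 (adjusted p = 0.365) for cone minus starburst, 0.14 ± 0.25 (0.880) for Arc minus starburst and 0.53 ± 0.25 (0.167, 95% interval 0.002 to 1.05) for Arc minus cone. The last interval lay just above 0, but the difference did not pass after adjustment over all genes. With means between 2.14 and 3.08 over the 9 groups, Necab1 lay near the median of all values.

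**Figure D3:**
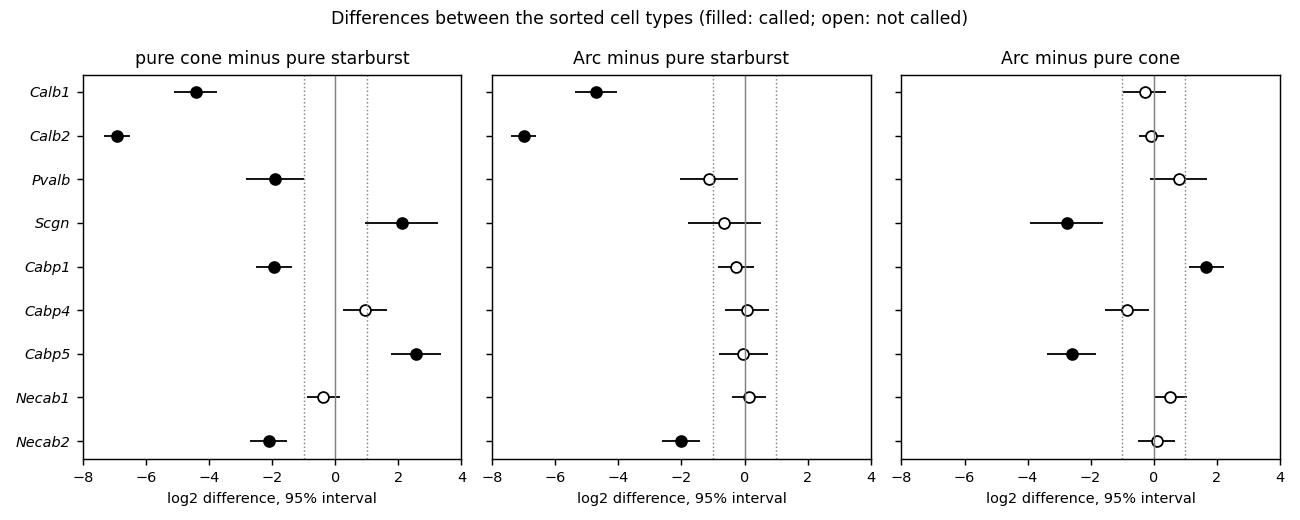
Log2 difference of each gene in the 3 comparisons of cell types, with 95% intervals from the limma fit over 27 arrays; filled points were called, open points were not, and dotted lines mark a difference of 1. Calb1, Calb2 and Necab2 are low in both cones and Arc cells, while Cabp1 is lower in cones than in both amacrine populations.

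In the mixtures, Calb1 and Calb2 stood above the pure cone arrays down to the smallest number of starburst cells. Calb2 and Calb1 were called higher in each of the 6 mixtures, with differences from pure cone of 5.74 ± 0.19 (adjusted p = 7.1e-15) and 2.15 ± 0.33 (6.1e-04) at 17 starburst cells of 200. No array left out, the third arrays included, ended a call of Calb1 or Calb2 against pure cone. Members called in either direction numbered 7 of 9 with 150 starburst cells (5.28% of all genes), 7 with 125 (6.7%), 7 with 100 (3.11%), 2 with 50 (1.4%), 3 with 43 (1.54%) and 2 with 17 (0.731%). These 6 comparisons share the pure cone arrays.

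Necab2 was called above pure cone with 150 (2.48 ± 0.29), 125 (2.43 ± 0.29) and 100 starburst cells (1.55 ± 0.29), and stood at 0.85 (0.177), 0.96 (0.0844) and 0.69 (0.419) with 50, 43 and 17. Cabp1 was called with 150 (1.80 ± 0.27), 125 (2.67 ± 0.27), 100 (1.56 ± 0.27) and 43 starburst cells (1.31 ± 0.27, adjusted p = 0.0088), the last not without the third arrays (0.0702). With 17 cells Cabp1 stood at 1.00 (0.0998), and at 1.35 (0.0075) without the second of those arrays, which read 3.77 against 4.72 and 4.93. Pvalb was called with 150, 125 and 100 starburst cells (1.79, 1.42 and 1.57; 0.0107, 0.0393 and 0.0409) and stood at 0.72 (0.594), 0.48 (0.708) and 0.53 (0.809) with 50, 43 and 17. Each of these Pvalb calls depended on single arrays: the adjusted p was 0.0766 without replicate 1 of the 150-cell group; for 125 cells, 0.108 and 0.164 without its replicates 1 and 2 and 0.0754, 0.123 and 0.0595 without pure cone replicates 1, 2 and 3; for 100 cells, 0.223 and 0.082 without its replicates 2 and 3 and 0.0801, 0.128 and 0.0681 without the same pure cone arrays. Without the third arrays it was 0.0668 with 125 and 0.140 with 100 cells.

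The genes of the cone side were called lower than pure cone in the same starburst-rich mixtures. Cabp5 stood at -1.96, -2.04 and -2.14 with 150, 125 and 100 starburst cells (adjusted p = 0.0014, 7.6e-04 and 9.5e-04), and none of these calls depended on an array. Scgn stood at -2.49, -2.20 and -2.47 (0.0055, 0.0114 and 0.0090). The adjusted p of the last pair was 0.0715 and 0.0641 without pure cone replicate 3 and 0.120 and 0.0608 without the third arrays, and that with 125 starburst cells was 0.0508 without its replicate 3. Against pure cone, Scgn with 50 and 43 starburst cells reached -2.34 (0.0374) and -2.57 (0.0199) without pure cone replicate 2 and was otherwise not called. Cabp4 was called lower with 150 (-1.19, 0.0332) and 125 starburst cells (-1.13, 0.0335) only without pure cone replicate 3.

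Against pure starburst, no member was called in the mixtures with 150, 125 or 100 starburst cells, where 0.0482%, 0.0482% and 0.418% of all genes were. At an unadjusted p under 0.05, 1, 2 and 0 members passed there in limma. With 50 starburst cells 4 of 9 were called (1.74% of all genes), with 43 cells 4 (4.08%) and with 17 cells 4 (4.9%). With 17 cells these were Calb1 (-2.28 ± 0.33, adjusted p = 1.3e-04), Calb2 (-1.18 ± 0.19, 4.7e-04), Cabp5 (2.09 ± 0.38, 0.0013) and Necab2 (-1.42 ± 0.29, 0.0031). Calb2 fell under the fold threshold (-0.91, 0.0043) without the second of those arrays. In the same mixture Cabp1 was -0.95 ± 0.27 (0.0316), under the fold threshold, and reached -1.07 (0.0422) without replicate 1 and -1.18 (0.0127) without replicate 3, Pvalb -1.68 (0.0465) without pure starburst replicate 1, and Scgn 2.07 (0.0398) without pure starburst replicate 2. Without the third arrays the same 4 genes were called with 17 starburst cells, against 5.55% of all genes. Calb1 alone was then called with 50 cells (1.91% of all genes), and Calb1 and Calb2 with 43 (3.95%).

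With 50 starburst cells, the called genes were Calb1 (-1.24, adjusted p = 0.0429), Cabp1 (-1.20, 0.0187), Necab2 (-1.26, 0.0197) and Cabp5 (2.25, 0.002). The Calb1 call ended without any pure starburst array or without replicate 1 or 2 of the mixture (adjusted p between 0.101 and 0.175). That of Cabp1 ended without pure starburst replicate 2 or 3 or mixture replicate 1 (0.0604 to 0.128), and that of Necab2 without pure starburst replicate 2 or mixture replicate 1 or 3 (0.0631 to 0.0992). With 43 cells they were Calb1 (-1.56, 0.0058), Necab2 (-1.15, 0.0163), Pvalb (-1.44, 0.0484) and Cabp5 (1.64, 0.0104), and Calb2 passed the adjusted p but not the fold (-0.96, 0.0042). The Pvalb call ended without pure starburst replicate 2 or 3 or any array of the mixture (0.0672 to 0.211), that of Necab2 without pure starburst replicate 2 or mixture replicate 2 or 3 (0.0656 to 0.0837), and that of Cabp5 without pure starburst replicate 1 or mixture replicate 3 (0.0505 to 0.054). Calb2 passed the fold without pure starburst replicate 2 or 3 or mixture replicate 3, at between -1.12 and -1.01.

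On the linear scale, a gene's level in a mixture can be set on the span between its pure means, with 0% for pure cone and 100% for pure starburst. Calb2 lay above the starburst share of cells on 18 of 18 mixture arrays. It averaged 44.9% ± 14.0 (SD, n = 3) at a share of 8.5%, 51.4% ± 10.5 at 21.5%, 73.0% ± 8.5 at 25%, 85.2% ± 6.0 at 50%, 112% ± 16.8 at 62.5% and 97.3% ± 10.9 at 75%. Calb1 followed the share more closely, at 16.2% ± 4.0, 30.6% ± 7.0, 41.1% ± 18.5, 74.5% ± 2.8, 94.5% ± 15.4 and 84.0% ± 15.3, and lay above it on 17 of 18 arrays. The median of the 172 other genes at least 2 log2 units higher in pure starburst cells was 25%, 33.5%, 40.9%, 62.4%, 85.1% and 81.6% at these shares. At 8.5% the quartiles of those genes were 17.7% and 33.5%, with Calb2 above and Calb1 below them. Other members kept less to 1 side, with Cabp1 above the share on 15, Necab2 on 12 and Pvalb on 10 of 18 arrays. On replicates 1 and 2 alone, Calb1 and Calb2 lay above the share on 12 of 12 arrays, Cabp1 on 10, Necab2 on 8 and Pvalb on 7. At 8.5% Calb2 then averaged 37.6%, Calb1 16.8% and the other genes had a median of 20.6%. Whether RMA values were proportional to RNA at these levels was not tested.

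Seen from the cone side, Cabp5 reached 10.1% ± 9.8 of the cone span at a cone share of 25%, 10.7% ± 17.9 at 37.5%, 6.2% ± 7.3 at 50%, 77.9% ± 34.0 at 75%, 43.2% ± 22.6 at 78.5% and 63.7% ± 8.1 at 91.5%. It lay below the cone share on 16 of 18 arrays, with the step between 50% and 75%. The 99 other genes at least 2 log2 units higher in cones had medians of 21.0%, 7.5%, 40.8%, 54.1%, 46.2% and 80.8%. Scgn averaged -9.8%, -5.0%, -9.5%, 5.5%, -0.5% and 67.8% ± 92.9 of the cone span at these shares. With 150 and 157 cone cells its log2 means were 2.81 and 2.58, beside 2.44 in pure starburst cells and 4.56 in pure cones. Scgn lay below the cone share on 17 of 18 arrays, and the exception was the third array with 183 cone cells, at 175%. With the third arrays left out, Cabp5 lay below the cone share on 11 of 12 arrays and Scgn on 12. Cabp5 was then at 2.6%, 10.1%, -0.4%, 60.4%, 28.3% and 57.5% of the span at the cone shares given above, and the medians of the other genes were 18.1%, 8.6%, 34.2%, 54.8%, 50.9% and 85.7%.

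**Figure D4:**
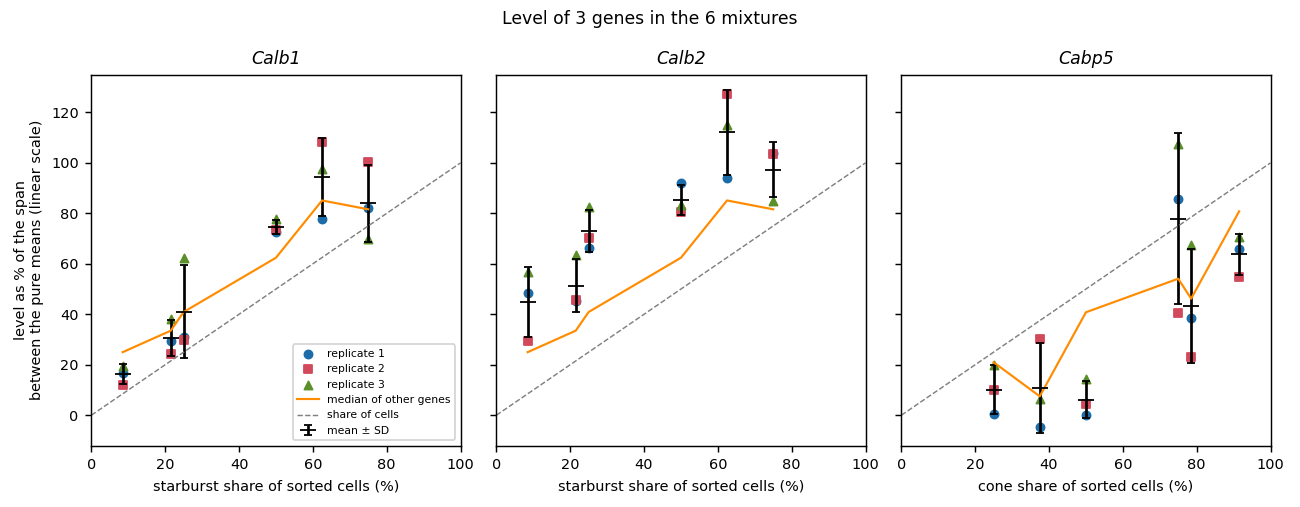
Linear level of Calb1, Calb2 (against starburst share) and Cabp5 (against cone share) in the 6 mixtures, as percent of the span between the pure means; symbols are replicates, bars mean ± SD of 3 arrays, the orange line the median of other genes with a difference of at least 2 and the dashed line the share of cells. Calb2 lies above the share on all 18 arrays and Cabp5 below it on 16 of 18.

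A slope on the number of cone cells over the 15 titration arrays called 7 of the 9 genes, against 8.2% of all genes. The change per 200 cone cells was -5.71 ± 1.27 for Calb2 (adjusted p = 0.0053), -3.94 ± 0.68 for Calb1 (8.4e-04), -2.34 ± 0.31 for Necab2 (1.3e-04), -1.98 ± 0.25 for Cabp1 (1.0e-04), -1.96 ± 0.39 for Pvalb (0.0022), 2.71 ± 0.40 for Cabp5 (3.2e-04) and 1.99 ± 0.60 for Scgn (0.0325). The Calb2 slope had the largest SE, which also holds departures from a straight line. Its mean was 9.33 with 150 cone cells and 2.85 with 200. The slope of Cabp4 was 0.82 ± 0.25 (0.038), under the fold threshold, and 1.29 ± 0.24 (0.0058) without the third arrays. Without the third arrays 7 of 9 slopes were called, against 7.76% of all genes. The Scgn slope was then 1.37 (0.277). With single arrays left out it missed the threshold without pure starburst replicate 1 (0.0624) or 3 (0.0552), the first or second array with 150 starburst cells (0.0504, 0.0519), and pure cone replicate 1 (0.099) or 3 (0.105). Pure cone replicate 3 left out, Cabp4 reached 1.0 (0.0151). The slope shares its end arrays with the comparison of pure groups.

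Over all 27 arrays, the named genes whose values followed Calb2 most closely were the vesicular acetylcholine transporter Slc18a3 (Pearson r = 0.993), the cholinergic vesicle protein Slc10a4 (0.991) and the transcription factor Sox2 (0.986). Those nearest to Calb1 were Nupr1 (0.983), Isl1 (0.972), a transcription factor, and Kcnmb4 (0.972), a subunit of potassium channels. For Necab2 they were Frmd7 (0.908), Rprml (0.898) and the EF-hand gene Efhd2 (0.897), for Cabp1 Reep5 (0.921), Stac2 (0.881) and Igsf8 (0.870), and for Pvalb Pde1b (0.828), Trmt9b (0.808) and Siah2 (0.800). On the cone side, Cabp5 was nearest to the photoreceptor genes Rp1 (0.855) and Rom1 (0.853) and to Ybx3 (0.847), and Scgn to Spata1 (0.880), Susd3 (0.828) and Rnf207 (0.818). These correlations are descriptions over arrays that share groups and pools. Over the 18 arrays left without the third of each group, those of Scgn were 0.681, 0.721 and 0.643, and those of the other genes lay between 0.806 and 0.991. Cabp4 and Necab1 were left out because their group means spanned 0.94.

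A wider list of 57 EF-hand genes outside the set, of which 43 were tested, had 3 higher and 8 lower in cones than in starburst cells and 32 not called, against 8.42% called of all tested genes. Its median was -0.29, beside -0.04 over all tested genes. The photoreceptor sensors led the cone side, with recoverin Rcvrn at 9.84, 9.53 and 9.20 in cones against 5.71, 6.66 and 5.95 in starburst cells (3.42 ± 0.44) and the guanylate cyclase activator Guca1a (2.39 ± 0.33), followed by Nucb2 (1.86 ± 0.49). Lower in cones were the potassium channel partner Kcnip1 (-2.56 ± 0.39), Efhd2 (-2.53 ± 0.23) and Cib1 (-2.30 ± 0.59). Arc minus starburst, with 3.55% of all genes called, had 1 higher and 3 lower of 43. Rcn1 was higher (1.80 ± 0.28), and the sensor Hpcal1 (-3.16 ± 0.30), Efhd2 (-1.87 ± 0.23) and Guca1a (-1.66 ± 0.33) were lower. Guca1a read 8.93, 9.71 and 8.69 on the pure starburst arrays and 7.51, 7.37 and 7.48 on the Arc arrays. Rod marker sums were 760 to 1283 and 404 to 654 on these arrays. The part of photoreceptor RNA in the Guca1a difference was not tested. Arc minus cone, with 10.3% of all genes called, had 7 higher and 3 lower of 43, with Kcnip1 (3.66 ± 0.39), the visinin-like sensor Vsnl1 (3.00 ± 0.29) and sorcin, Sri (2.47 ± 0.64), as the largest increases and Rcvrn (-4.31), Guca1a (-4.05) and Hpcal1 (-2.03) as the decreases. Efhd2 and Hpcal1 (-1.12 ± 0.30 for cone minus starburst), like Necab2, Calb1 and Calb2, were called lower in both cones and Arc cells than in starburst cells. On replicates 1 and 2 alone, 5 were higher and 6 lower for cone minus starburst (7.81% of all genes called). The counts were 2 and 3 for Arc minus starburst (3.1%), and 4 and 3 for Arc minus cone (9.48%). Of the genes named, Cib1 (-2.03, adjusted p = 0.0623) and Hpcal1 (-0.92, 0.0672) were then not called for cone minus starburst, nor Sri (1.62, 0.184) for Arc minus cone.

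Of 14 known binding partners of the 9 proteins, 7 were tested, and 3 were called for cone minus starburst and for Arc minus cone, where 8.42% and 10.3% of all genes were. The channel gene Cacna1f, whose product Cabp4 regulates, read 5.78, 5.25 and 4.37 in cones and 3.14, 2.71 and 2.97 in starburst cells, so that the third array was low for the channel as for Cabp4. It was higher in cones by 2.20 ± 0.36 (adjusted p = 1.6e-04), as was the Cabp4 partner Unc119 (2.0 ± 0.25), and the vesicle fusion gene Snap25 was lower (-1.13 ± 0.15). Arc minus cone had Snap25 higher (1.67 ± 0.15) and Unc119 (-2.60 ± 0.25) and Cacna1f (-2.23 ± 0.36) lower, and Arc minus starburst had 0 of 7 called by limma (3.55% of all genes), 3 with an unadjusted p under 0.05. The counts of partners were the same without the third arrays. There 7.81% of all genes were called for cone minus starburst, 3.1% for Arc minus starburst and 9.48% for Arc minus cone. The Cacna1f difference was then 2.59 ± 0.31 (1.5e-04) for cone minus starburst.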

How the data were processed

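The deposited table holds log2 values that the authors made with RMA in the R package oligo (R 2.11.1), per the submitters' processing notes, which name build mm9; which arrays were normalized together is not given in the sources used here. Array medians lay between 2.78 and 2.89. Of 22347 probe sets, 19446 carried 1 gene symbol, and the probe set with the highest mean stood for a gene. Genes above 2.83 on at least 3 arrays were tested (12441) in 1 fit of all 27 arrays with limma 3.58.1 in R 4.3.3 (lmFit with a mean for each group, then eBayes; 18 residual degrees of freedom), with Benjamini-Hochberg adjustment over those genes. The step was tested on simulated data. Errors of differences are SE from that fit. Replicate numbers mark separate pools of mice in the study's design, so a replicate block was an alternative. Deviations of same-numbered titration arrays correlated with a median r of 0.018, above 0.1 in 3 of 30 pairs. For differently numbered titration arrays the median r was -0.012, above 0.1 in 1 of 60 pairs. P-values of the main fit rest on the spread between arrays of a group. Those of the slope rest on the spread around a line in log2, which also holds departures from that line. Both treated the arrays as independent although same-numbered titration arrays share a pool. The rule for named genes was all 9 members, the 3 called genes with the largest difference in each direction from the 2 lists, and the 3 most correlated genes. Members and lists were chosen with earlier results of these data known. Other alternatives were the filter, the probe set rule, quantile normalization, eBayes settings, the arrays in the fit and leaving out arrays. Leaving out the third arrays was chosen after seeing the data.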

Additional observations from a re-analysis of the deposited data

How the results depend on the processing

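Among refits of the differences between cell types over the 9 genes, 358 kept their direction and side of the threshold. 5 lost a call, all of Scgn in cone minus starburst, and 4 gained one, all of Cabp4; their values stand in the report. Direction reversed in 8, none of them called: Arc minus starburst for Cabp4 (-0.013), Cabp5 (0.306) and Necab1 (-0.061) without pure starburst replicate 2 and for Cabp5 (0.011) and Necab1 (-0.077) without Arc replicate 2, Necab2 in Arc minus cone (0.000) without pure cone replicate 1, and Calb1 in Arc minus cone without pure cone replicate 3 (0.296) or the third arrays (0.367). Member calls summed over the 6 mixtures against pure starburst were 12, and 7 after quantile normalization or without replicate 3 of every group; those against pure cone were 28, and 23 without replicate 3 of every group. The cause was not tested. Leaving out single arrays gave summed member calls of 8 to 13 and 26 to 29. For the mixtures, calls over all genes were not counted after quantile normalization, with the block or with single arrays left out. These member counts therefore have no share of all genes beside them. Between cell types, calls over all 12441 tested genes were 1048, 442 and 1286 in the main fit and 941, 381 and 1092 after quantile normalization. Over single arrays left out, Arc minus starburst reached 0.196 for Cabp4, -0.215 for Cabp5 and 0.411 for Necab1, and Arc minus cone -0.657 for Calb1 and 0.24 for Necab2, at the other ends of their ranges. With the replicate block the summed member calls were 13 and 28. The member counts of the cell-type comparisons and of the slope stayed at 7, 3, 3 and 7. Over all 12441 genes the block gave 1081, 449 and 1331 calls between cell types. The block changed no call of a member between cell types. With 3 arrays a group, the SE of a difference between cell types was 0.25 for Necab1, 0.34 for Cabp4 and 0.56 for Scgn. Differences small beside these SE were not detectable.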
